A study of Mus musculus with 6 samples.

Results

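Chromatin accessibility was described around 10 genes of the inflammatory response: the cytokines Il1a, Il1b, Il18, Il6, Tnf and Osm, the prostaglandin synthase Ptgs2, the urokinase receptor Plaur, the mRNA-degrading enzyme Zc3h12a and the kinase Map3k8. The genes were chosen by name and not by their accessibility, although results of these data were known when the set was drawn up. A peak was included if the deposited annotation gave it to 1 of these genes and placed it within 100000 bp of the transcription start site (TSS). This gave 75 of 175929 peaks. Of these, 24 belonged to Zc3h12a, 15 to Il6, 11 to Osm, 10 each to Il1b and Plaur, 3 to Tnf and 2 to Map3k8. No peak (0) was given to Il1a, Il18 or Ptgs2, so that 7 of the 10 genes could be compared.

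ATAC-seq, which reads out open DNA through the cuts that a transposase makes in it, was carried out on leukemia cells from mouse spleen. The cells expressed AE9a, a truncated AML1-ETO fusion protein delivered by a retrovirus, and carried 1 floxed and 1 intact allele of Usp18 (Usp18+/f) together with UBCER-Cre, a Cre recombinase that is driven by the ubiquitin C promoter and activated by tamoxifen. Recipient mice with overt leukemia received oil (replicates 1, 2 and 4) or tamoxifen (replicates 1, 3 and 4), and GFP+ Lin- c-Kit+ cells were sorted 3 days after the first injection. Usp18 encodes a protease that removes ISG15 from proteins and restrains the type I interferon receptor, and the question was how its partial loss changed the leukemia cells.

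Both groups had the floxed allele, the Cre and the oncogene, and only the tamoxifen group had both the drug and the deletion, which cannot be told apart here. The Cre acted in the transplanted leukemia cells and not in the cells of the host. The labels give no age of the mice, and the study's methods describe young adults of both sexes. The labels do not tie the libraries to single mice either. For the sorted cells shared with RNA-seq the number of mice in the methods matches that of libraries in a group here, but elsewhere they count fewer biological replicates for ATAC-seq, so the p-values measure the spread between these libraries, which may be technical. The peaks give no check of the deletion. At the Usp18 start site (7 bp from the TSS) the oil libraries had 459, 415 and 440 normalised tags and the tamoxifen libraries 441, 468 and 438, and which exons are floxed is not given in the labels.

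Many cytokine genes of this group are kept quiet in resting cells. They are switched on by NF-kB, AP-1 and C/EBP factors when a cell senses microbes or tissue damage. IL-1α, IL-1β and IL-18 signal through related receptors, TNF through its own receptor family, and IL-6 and oncostatin M through complexes that share the gp130 subunit. Several of the other genes act before or after the cytokines. Map3k8 (TPL2) passes NF-kB-linked signals on to the ERK pathway and is needed for efficient TNF production by macrophages, Zc3h12a (Regnase-1) degrades cytokine mRNAs including that of Il6, Ptgs2 makes prostaglandin precursors, and Plaur binds urokinase at the cell surface.

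Sequencing depth was 57.4 to 74.7 M tags a library, and the median peak around the 7 genes held 48.0 to 64.5 tags, which limits the precision at most of them. The oil libraries were close to each other. Chi-square divided by its degrees of freedom, which is about 1 for counting error alone, was 1.03 to 1.22 among them. Tamoxifen replicate 4 stood apart from the other tamoxifen libraries (2.66 and 2.68) and lay nearer to the oil libraries (1.73 to 1.96). Each call on the 75 peaks and on their sums per gene is therefore also given without it. The labelled cell type was checked with marker genes at their start sites. Of 9 progenitor genes, 8 had a start-site peak, with a median of 318 normalised tags after oil, against 7 of 12 mature myeloid genes (median 30.7), 2 of 10 T cell genes (40.9), 1 of 7 B cell genes (94.4) and 2 of 6 NK cell genes (30.6). All 9 erythroid genes had one (median 218).

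A total of 4 peaks passed an adjusted p of 0.05, and 3 of them are shown here as 200 bp of reference sequence centered on the peak. The other, at Map3k8, is not shown. The window at Plaur spans the start site of the transcript NM_011113, that of Zc3h12a lies in intron 2 of 5, and that of Il6 lies between genes upstream of Il6. The sequences are from the forward strand of GRCm38 (mm10), read 5′ to 3′, and capitals mark matches to a panel of 7 motifs named further on.
Plaur, chr7:24462463-24462662: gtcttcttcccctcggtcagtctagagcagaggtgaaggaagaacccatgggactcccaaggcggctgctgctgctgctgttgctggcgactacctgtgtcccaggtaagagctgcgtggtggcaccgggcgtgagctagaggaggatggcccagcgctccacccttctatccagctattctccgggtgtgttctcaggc
Zc3h12a, chr4:125124869-125125068: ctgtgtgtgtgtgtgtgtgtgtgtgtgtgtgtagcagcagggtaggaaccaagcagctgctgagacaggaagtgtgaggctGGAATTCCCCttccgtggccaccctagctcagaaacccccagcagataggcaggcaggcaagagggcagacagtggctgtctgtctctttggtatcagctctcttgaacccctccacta
Il6, chr5:29973615-29973814: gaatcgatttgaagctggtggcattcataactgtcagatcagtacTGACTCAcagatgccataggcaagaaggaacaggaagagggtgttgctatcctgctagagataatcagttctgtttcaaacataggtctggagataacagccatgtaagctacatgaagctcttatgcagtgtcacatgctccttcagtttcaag
The capitals mark an NF-kB match in the Zc3h12a window, at bases 82 to 91 on the reverse strand, and an AP-1 match in the Il6 window, at bases 46 to 52. The Plaur window held no match to any of the 7 motifs, and neither did the Map3k8 window that is not shown.

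Most of the 75 peaks had more tags after tamoxifen, by small amounts. Values are tags per peak scaled by DESeq2 size factors, called normalised tags, and fold changes are log2, tamoxifen minus oil. The change was above 0 at 62 of 75 peaks (82.7%), against 49.7% of all peaks, and the median was 0.21, against -0.0013 over all peaks. All 3 tamoxifen libraries lay above all 3 oil libraries at 25 of the 75 (33.3%), where 11.8% of all peaks did so, and all lay below at 2 (2.67%), where 9.99% of all peaks did so. Neighboring peaks of 1 gene share libraries and position, and no test was made of the set.

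**Figure D1:**
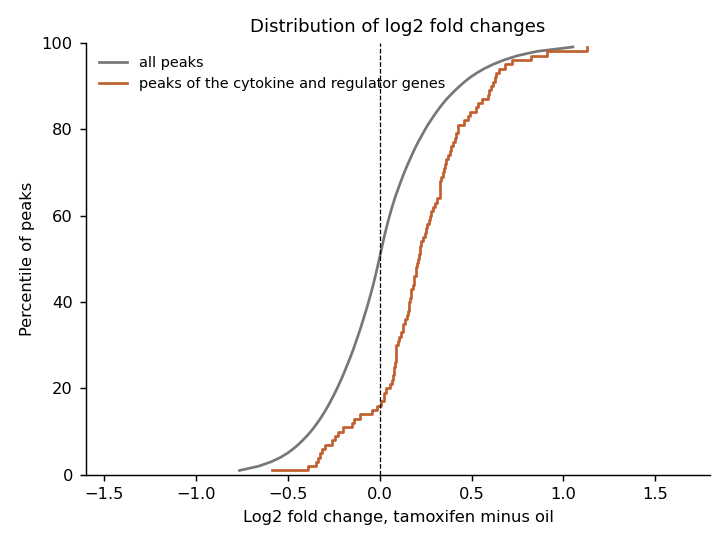
Cumulative distribution of the log2 fold change (x axis, tamoxifen minus oil) against the percentile of peaks (y axis), for all 175929 peaks (grey) and the 75 peaks of the cytokine and regulator genes (orange). The orange curve lies to the right of the grey one, with a median of 0.21 against -0.0013.

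Single peaks rarely passed the test. In the DESeq2 Wald test with Benjamini-Hochberg adjustment over all 175929 peaks, 4 of the 75 passed an adjusted p of 0.05 (5.33%), where 1.39% of all peaks passed. All 4 rose (1.22% of all peaks passed and were higher after tamoxifen). Only 1 also had a fold change over 2, where 0.654% of all peaks did. At an unadjusted p under 0.05 there were 14, of which 13 were higher and 1 lower, where 9.02% of all peaks had such a p. Without tamoxifen replicate 4, 6 of the 75 passed, where 3.71% of all peaks did. With edgeR in place of DESeq2, 6 passed as well, where 2.92% of all peaks did. They included a fall, at the Plaur peak at -5074 bp (log2 -1.02). The direction was not carried by a single tamoxifen library: the median deviation from the oil mean over the 75 peaks was 0.21, 0.25 and 0.16 on the log2 scale in tamoxifen replicates 1, 3 and 4, against values between -0.0077 and 0.0196 in the oil libraries, which lie near 0 by construction. It did not rest on Zc3h12a alone either. Without its 24 peaks, 38 of 51 (74.5%) were above 0 and the median was 0.16.

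**Figure D2:**
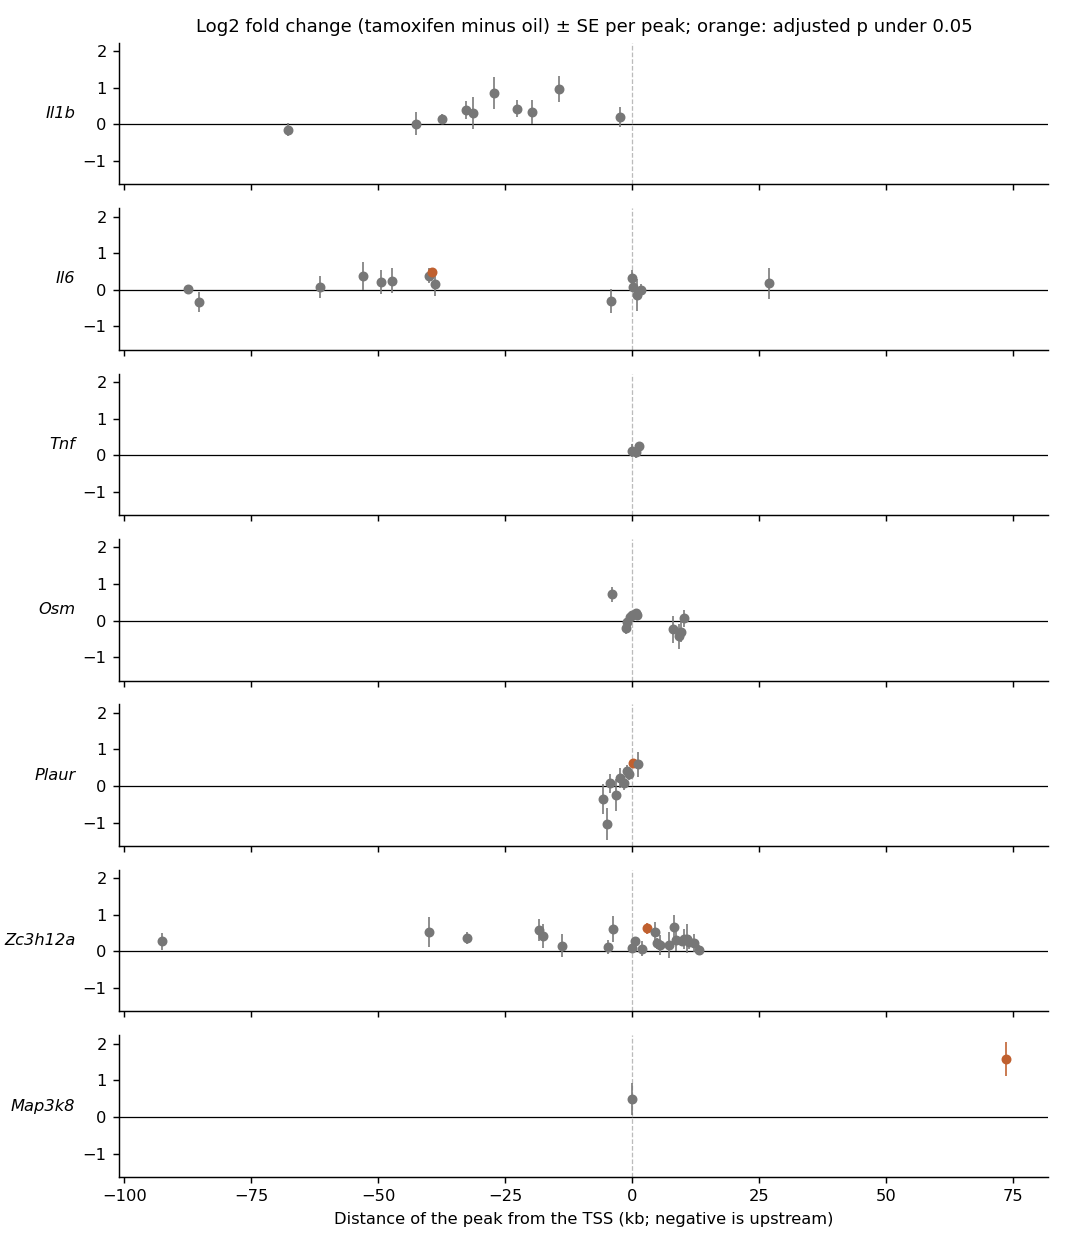
Log2 fold change (y axis, tamoxifen minus oil, points with the standard error) of each of the 75 peaks against its distance from the TSS in kb (x axis, negative is upstream), in 1 panel per gene. The 4 peaks with an adjusted p under 0.05 (orange) are at Il6, Plaur, Zc3h12a and Map3k8, and every Zc3h12a peak lies above 0.

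Promoter-proximal and distal peaks were both mostly above 0. Of the 25 promoter-proximal peaks (within 3000 bp of a TSS), 21 were above 0, with a median of 0.16, and of the 50 distal peaks, 41 were above 0, with a median of 0.24. Each class held 2 of the 4 passed peaks. The median over all proximal peaks of the series was -0.0143 and over all distal peaks 0.0109. Among the peak lists that the authors had called in each group and then merged, 55 of the 75 peaks came from both, 11 from the tamoxifen list alone (14.7%, against 11.2% of all peaks) and 9 from the oil list alone (12.0%, against 17.4%). A peak of 1 list alone entered the table through that group, which favors a higher value there.

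Among the cytokines, Il1b encodes IL-1β, the form of IL-1 that is secreted after cleavage by caspase-1. Its 10 peaks lay upstream of the gene, from -67806 to -2379 bp, and 9 were above 0. In the DESeq2 test 0 passed, with 1 at an unadjusted p under 0.05 and 1 past edgeR. The peak nearest the start site, at -2379 bp (chr2:129373386-129373651, in an intron of the antisense transcript Il1bos), had 50.7, 48.8 and 48.4 tags after oil and 61.9, 64.6 and 43.8 after tamoxifen. The tamoxifen libraries lay on both sides of the oil libraries (log2 0.20 ± 0.27 SE, adjusted p = 0.949). The smallest p among the Il1b peaks was at -14447 bp (chr2:129385435-129385737, intergenic), with 15.4, 21.4 and 23.3 tags after oil and 34.8, 39.0 and 44.7 after tamoxifen. The groups did not overlap, but the change of 0.97 ± 0.36 (SE) had an adjusted p of 0.202 and passed only with edgeR (0.0286). This peak was called in the tamoxifen list alone, and so entered the table through the group in which it was higher.

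A further 3 peaks inside the Il1b gene were given by the annotation to Il1bos, a long noncoding RNA on the opposite strand, and so are not among the 75. They were looked at after their values had been seen. At 2921 bp downstream of the Il1b start site, in intron 3 of 6 (chr2:129368058-129368429), the oil libraries had 44.1, 46.8 and 55.5 tags and the tamoxifen libraries 92.8, 73.5 and 104. This peak rose by a log2 change of 0.89 ± 0.24 (SE, adjusted p = 0.0235). At 1453 bp the values were 17.6, 17.6 and 21.5 after oil and 27.1, 35.7 and 50.3 after tamoxifen (log2 0.99, adjusted p = 0.237), and at 3789 bp 24.3, 23.4 and 21.5 against 36.7, 42.3 and 41.0 (log2 0.80, adjusted p = 0.352). In each of the 3 peaks every tamoxifen library was above every oil library, as at 11.8% of all peaks, and the 2 outer ones did not pass.

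Il1a and Il18, which encode IL-1α and IL-18, had no peak of their own. The peak nearest the Il1a start site was 9604 bp away, at the 3′ end of the gene (chr2:129300446-129300718), and was given to the noncoding gene Gm14023. It had 48.5, 54.6 and 56.4 tags after oil and 69.6, 57.9 and 50.3 after tamoxifen, and the groups overlapped (log2 0.15, adjusted p = 0.968). In the Il18 gene, 4 intronic peaks were given to the neighbor Tex12, and the nearest was 10615 bp from the start of the RefSeq gene. The highest of them (chr9:50574803-50575098) had 76.1, 70.2 and 86.9 tags after oil and 50.3, 37.9 and 61.5 after tamoxifen, with every tamoxifen library below every oil library, and did not pass (log2 -0.63 ± 0.25 SE, adjusted p = 0.279). Ptgs2, the inducible cyclooxygenase, had its nearest peak 26971 bp away, and 4 peaks in all within 100000 bp. The table thus held no peak at the start sites of these 3 genes for either group, which at this depth is no proof that the sites were closed.

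Il6 encodes IL-6, which drives STAT3 signaling through gp130. Of its 15 peaks, 11 were above 0, and 1 passed. It lay at -39399 bp (chr5:29973563-29973868, intergenic) and had 218, 224 and 236 tags after oil and 284, 340 and 320 after tamoxifen. Every tamoxifen library was above every oil library, and the rise was 1.39-fold (log2 0.47 ± 0.13 SE, adjusted p = 0.0185). Its neighbor at -39921 bp also had groups that did not overlap (oil 77.2, 80.0 and 93.2, tamoxifen 96.7, 123 and 110, log2 0.39, adjusted p = 0.562). At the start site the groups overlapped. The peak at 147 bp (chr5:30013153-30013369) had 192, 200 and 185 tags after oil and 187, 206 and 220 after tamoxifen (log2 0.09 ± 0.14 SE, adjusted p = 0.965).

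Tnf encodes the cytokine TNF. It had 3 peaks, all within 1360 bp of the start site and all above 0, and 0 passed DESeq2 or edgeR, with 1 at an unadjusted p under 0.05. At -64 bp (chr17:35201926-35202216) the oil libraries had 106, 111 and 109 tags and the tamoxifen libraries 122, 132 and 104, so that tamoxifen replicate 4 lay below the oil group (log2 0.13 ± 0.18 SE, adjusted p = 0.956). The peak at 1360 bp (chr17:35200519-35200776, in the last intron of the transcript it was annotated with) held the most tags of the 3, with 309, 281 and 308 tags after oil and 336, 359 and 367 after tamoxifen. Its groups did not overlap, and its change of 0.24 ± 0.11 (SE) did not pass (adjusted p = 0.461).

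Osm encodes oncostatin M, a gp130 cytokine made by myeloid cells. The peak at its start site held many tags, at 578, 608 and 569 tags after oil and 626, 681 and 655 after tamoxifen (-6 bp, chr11:4236570-4236988). The groups did not overlap there and the change was small (log2 0.16 ± 0.09 SE, adjusted p = 0.615). The smallest p was at -3952 bp (chr11:4232618-4233048, intergenic), with 119, 80.0 and 86.0 tags after oil and 184, 174 and 110 after tamoxifen. Tamoxifen replicate 4 lay inside the oil range, and the change of 0.72 ± 0.21 (SE) missed the threshold (adjusted p = 0.0537). Without tamoxifen replicate 4 it was 0.92 with an adjusted p of 0.000441. Of the 11 Osm peaks, 6 were above 0 and 5 below, which was the most even split of the 7 genes.

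The smallest adjusted p was at a start site of Plaur, which encodes the receptor for urokinase. Distances here are from the start of the transcript NM_011113, as in the deposited annotation, whereas the RefSeq gene begins 1546 bp farther upstream. The peak at 80 bp (chr7:24462310-24462816, promoter and first exon) had 234, 314 and 279 tags after oil and 433, 406 and 440 after tamoxifen. The lowest tamoxifen library was above the highest oil library, and the mean rose from 276 ± 40.2 to 426 ± 18.4 (SD, n = 3 each), a log2 change of 0.63 ± 0.12 (SE, adjusted p = 8.31e-05). It passed whichever library was left out, with log2 changes from 0.53 to 0.73 and adjusted p from 0.00018 to 0.0221 (0.000394 without tamoxifen replicate 4). The peak at -957 bp, in the promoter, had 137, 152 and 154 tags after oil and 193, 176 and 220 after tamoxifen, with groups that did not overlap, and did not pass (log2 0.41, adjusted p = 0.221). At the upstream start of the RefSeq gene, the peak at -1625 bp averaged 90.4 ± 11.0 tags in the oil group and 96.1 ± 5.86 in the tamoxifen group (SD, n = 3 each), with a log2 change of 0.09 (adjusted p = 0.981).

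Accessibility was not higher across the whole Plaur region. The peak at -5074 bp (chr7:24457285-24457533) had 23.2, 23.4 and 34.0 tags after oil and 13.5, 11.1 and 14.9 after tamoxifen. Every tamoxifen library was below every oil library (log2 -1.03 ± 0.43 SE, adjusted p = 0.353, and 0.0497 with edgeR). The peak was called in the oil list alone, and so entered the table through the group in which it was higher. Of the 10 Plaur peaks, 7 were above 0 and 3 below, and the 3 below were among the 4 farthest upstream.

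Zc3h12a encodes Regnase-1, an endonuclease that cuts the mRNAs of Il6 and other inflammatory genes and so limits their output. It had the most peaks, and at all 24 the tamoxifen mean was the higher one, with log2 changes between 0.04 and 0.66 and a median of 0.29. At 9 of the 24 all tamoxifen libraries lay above all oil libraries, as they did at 11.8% of all peaks. The peak that passed lay in intron 2, at 2912 bp (chr4:125124836-125125103), and had 160, 145 and 168 tags after oil and 244, 286 and 205 after tamoxifen. Every tamoxifen library was above every oil library, and the mean rose 1.55-fold, from 158 ± 11.3 to 245 ± 40.8 (SD, n = 3 each, log2 0.63 ± 0.15 SE, adjusted p = 0.00581).

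At the Zc3h12a start site itself the difference was small. The peak at -33 bp (chr4:125127804-125128025), which held the most tags of all 75, had 687, 669 and 636 tags after oil and 722, 759 and 659 after tamoxifen, and the groups overlapped (log2 0.10 ± 0.09 SE, adjusted p = 0.860). At 463 bp, in intron 1, they did not overlap (oil 331, 357 and 335, tamoxifen 443, 436 and 359, log2 0.27, adjusted p = 0.337), and without tamoxifen replicate 4 this peak passed (log2 0.37, adjusted p = 0.0327). At the end of the gene, at 9741 bp, the values were 227, 211 and 226 after oil and 276, 309 and 231 after tamoxifen (log2 0.30, adjusted p = 0.453).

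**Figure D3:**
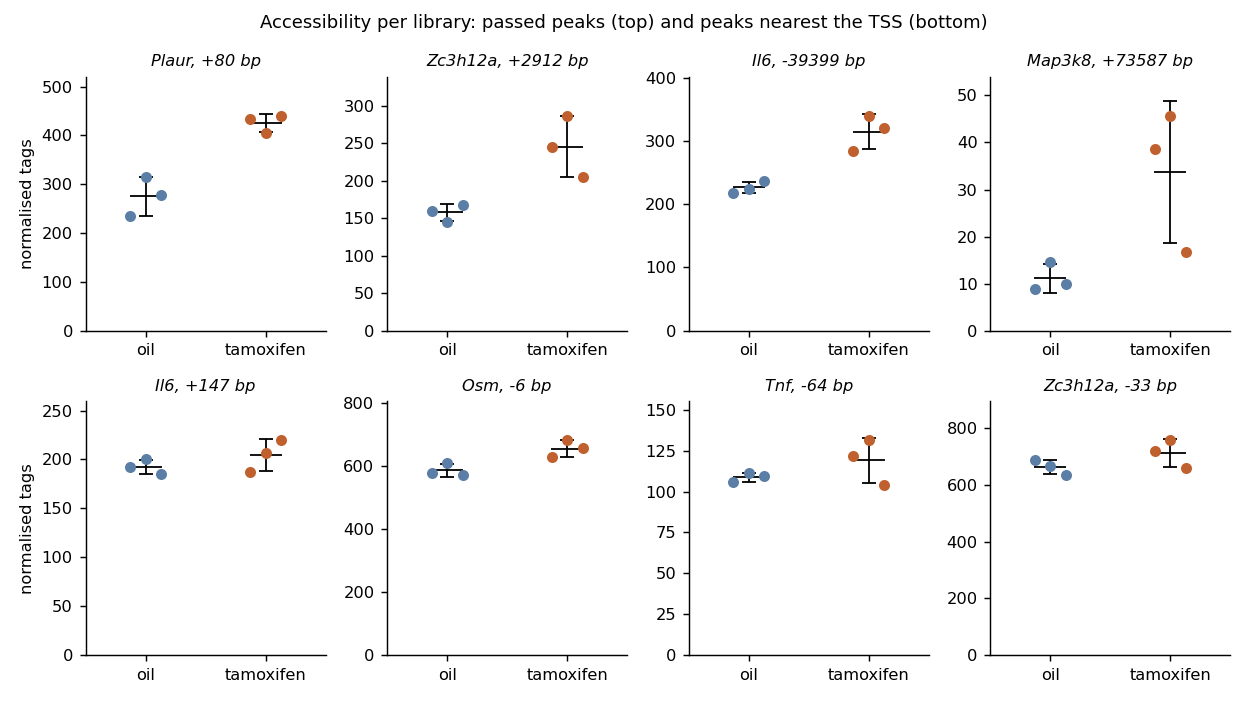
Normalised tags (y axis) in each of the 3 oil (blue) and 3 tamoxifen (orange) libraries, with the mean and SD in black, for the 4 peaks that passed the test (top row) and the peaks nearest the start sites of Il6, Osm, Tnf and Zc3h12a (bottom row). In the top row the groups do not overlap, and in the bottom row they overlap for Il6, Tnf and Zc3h12a.

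Map3k8 encodes the kinase TPL2. It had only 2 peaks, both called in the tamoxifen list alone and both with few tags. They thus entered the table through the group in which they were higher, so their direction adds no support. The peak at the start site, at 9 bp, had 11.0, 19.5 and 18.8 tags after oil and 21.3, 22.3 and 26.1 after tamoxifen, and did not pass (log2 0.49 ± 0.43 SE, adjusted p = 0.867), although the groups did not overlap. The other lay at 73587 bp (chr18:4279232-4279500, intergenic, beyond the 3′ end of the gene) and had 8.82, 14.6 and 9.86 tags after oil and 38.7, 45.7 and 16.8 after tamoxifen. It rose 3.01-fold (log2 1.59 ± 0.47 SE, adjusted p = 0.0469) and was the only 1 of the 75 past a fold of 2. Tamoxifen replicate 4 was close to the highest oil library, and without it the change was 1.92 with an adjusted p of 0.00171. The annotation assigned the peak to Map3k8 as the nearest start site.

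Of the 4 calls, only the Plaur peak at 80 bp held with each library left out. The Il6 peak passed without tamoxifen replicate 1 (adjusted p = 0.0295) or 4 (0.0278) but not without tamoxifen replicate 3 (0.339) or oil replicate 1 (0.248), 2 (0.191) or 4 (0.122). The Zc3h12a peak passed without tamoxifen replicate 4 (0.000168), and not without tamoxifen replicate 1 (0.0680) or 3 (0.283) or oil replicate 1 (0.0790), 2 (0.147) or 4 (0.0503). The Map3k8 peak passed without tamoxifen replicate 4. It had an adjusted p of 0.373 without oil replicate 1, and without the others DESeq2 gave it none because of its low counts. The direction was the same for the 4 peaks in each of these fits. This follows almost by construction, because at each of these peaks every tamoxifen library lay above every oil library.

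**Figure D4:**
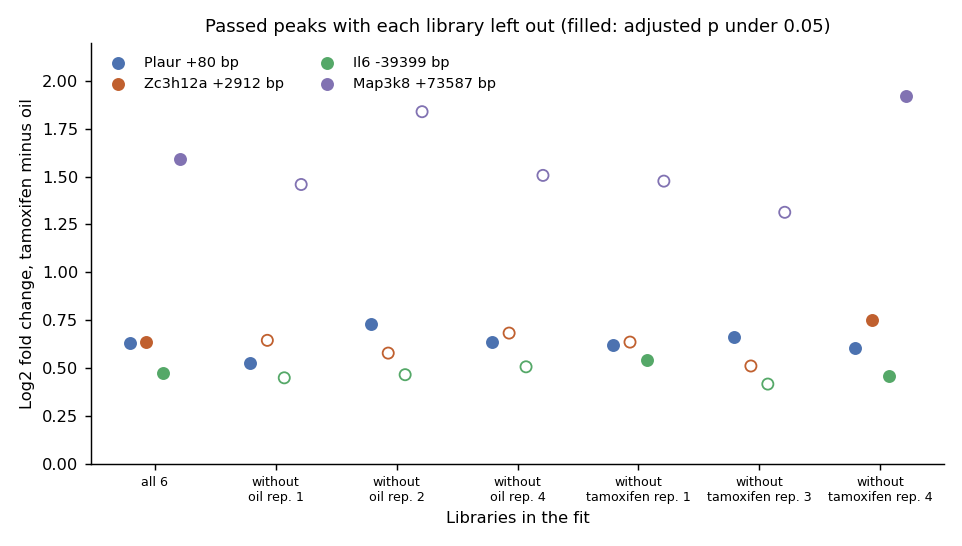
Log2 fold change (y axis, tamoxifen minus oil) of the 4 passed peaks in the fit of all 6 libraries and in fits that leave out 1 library each (x axis). Filled points have an adjusted p under 0.05 and open points do not, or were given none: only the Plaur peak is filled throughout, between 0.53 and 0.73.

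When the tags of all peaks of a gene were summed, the tamoxifen libraries lay above the oil libraries for each of the 7 genes, as they did for 16.4% of all 19781 genes. Plaur, Zc3h12a and Map3k8 passed the DESeq2 test over those genes, where 6% of all genes passed. Plaur had 798, 876 and 839 summed tags after oil and 1056, 988 and 1138 after tamoxifen (log2 0.34 ± 0.08 SE, adjusted p = 0.00109). Zc3h12a had 2637, 2707 and 2766 after oil and 3311, 3272 and 2914 after tamoxifen (log2 0.23 ± 0.06 SE, adjusted p = 0.00728). Map3k8 had 19.9, 34.4 and 29.5 after oil and 59.7, 66.7 and 43.4 after tamoxifen (log2 1.01 ± 0.32 SE, adjusted p = 0.0317), and its sum rests on the 73587 bp peak, since within 50000 bp of the start site the log2 change was 0.47 with an adjusted p of 0.679. Both Map3k8 peaks were called in the tamoxifen list alone, which favors a rise of their sum.

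The 4 cytokine genes with peaks did not pass in sum. The log2 changes were 0.19 for Il1b (adjusted p = 0.203), 0.14 for Il6 (0.251), 0.16 for Tnf (0.355) and 0.08 for Osm (0.482). The Il1b sum leaves out the peaks inside that gene that were given to Il1bos. With peaks within 50000 bp alone, Il1b had a log2 change of 0.28 (adjusted p = 0.0565) and Il6 of 0.21 (0.0877). Tnf had 0.16 (0.353) and Osm 0.09 (0.465) there. Summed Il1b tags were 649, 696 and 640 after oil and 716, 728 and 828 after tamoxifen, and those of Il6 were 1291, 1283 and 1278 against 1323, 1448 and 1474. Without tamoxifen replicate 4, Plaur (adjusted p = 0.00443), Zc3h12a (2.72e-06) and Map3k8 (0.00574) passed. Without oil replicate 1 the adjusted p was above the threshold for all of them, at 0.0567 for Plaur, 0.148 for Zc3h12a and 0.313 for Map3k8. Plaur passed without each of the other libraries. Zc3h12a also passed without oil replicate 4 (0.0423), but not without oil replicate 2 (0.0834) or tamoxifen replicate 1 (0.129) or 3 (0.113). Map3k8 did not pass without oil replicate 2 (0.0753) or 4 (0.140) or tamoxifen replicate 1 (0.224) or 3 (0.323).

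**Figure D5:**
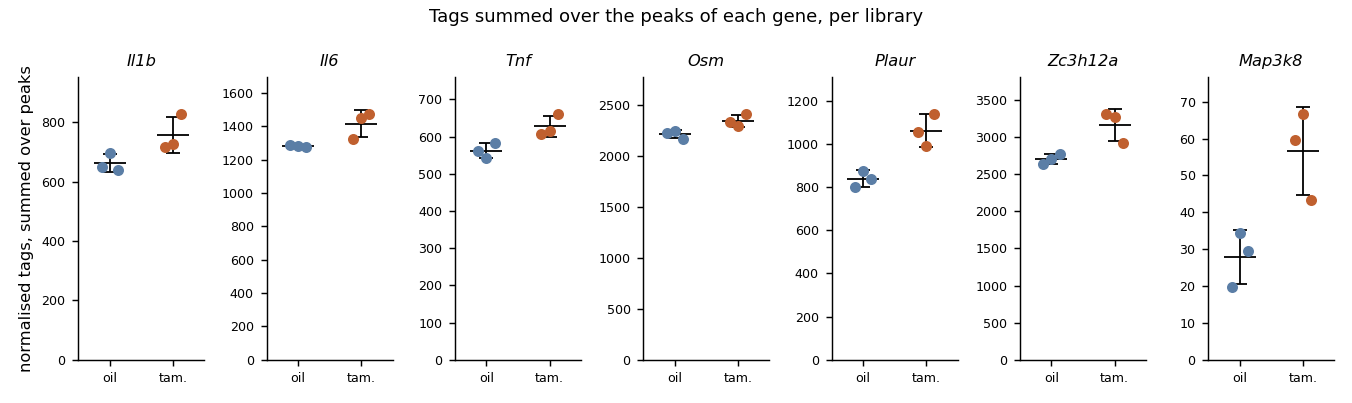
Normalised tags summed over the peaks of each gene (y axis, starting at 0) in the 3 oil (blue) and 3 tamoxifen (orange, "tam.") libraries, with the mean and SD in black. The tamoxifen libraries lie above the oil libraries in all 7 genes (16.4% of all genes did so), and the change passed the test for Plaur, Zc3h12a and Map3k8.

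Genes that act with the 10 were counted from lists chosen by function, in which peaks were again taken within 100000 bp of the TSS. Of 148 peaks at 12 receptor and decoy genes, 3 rose (median log2 0.23), and with edgeR 9 did. They were near Il18rap, the IL-18 receptor accessory chain (log2 1.25, adjusted p = 0.000191), in Lifr, a receptor chain that partners gp130 (0.73, 0.00420), and at the start site of Il6ra, the IL-6 receptor (0.44, 0.0495). At the Il18rap peak the mean rose from 50.4 ± 4.67 to 120 ± 37.6 tags (SD, n = 3 each). The cytokine genes that lie beside the set had 2 of 38 peaks rise (median 0.24), against 9 with edgeR. The 2 were 1 upstream of Lta, the neighbor of Tnf (0.54, 0.0362), and 1 at the start site of Lif, the neighbor of Osm (0.48, 0.0449).

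In the signaling genes around Map3k8, 2 of 336 peaks rose (median 0.09, 6 with edgeR), in Traf6, an adaptor of the IL-1 receptor (0.50, 0.0187), and at the 3′ end of Nfkbia, the inhibitor of NF-kB (0.42, 0.0465). Of 88 peaks at inflammasome genes 1 rose, at the start site of Nlrc4 (0.91, 0.0161), and the median of that list was -0.04, with 3 past edgeR. Of 185 peaks at prostaglandin and plasminogen genes 1 rose, in Ptger3, a prostaglandin E2 receptor (0.70, 0.0109, list median 0.02), and 4 did with edgeR. Among 184 peaks at genes of cytokine mRNA decay other than Zc3h12a 0 passed DESeq2 (median 0.05), with 19 at an unadjusted p under 0.05 and, with edgeR, 3 that rose and 1 that fell. The shares of called peaks in the 6 lists, from 0 of 184 to 2 of 38, are to be read against the 1.39% of all peaks that passed DESeq2, and the edgeR counts against its 2.92%.

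Motifs were searched on both strands in the central 200 bp of each peak. They were NF-kB, AP-1 (TGANTCA), C/EBP (TTGCNNAA), Runx (TGTGGT), PU.1 (GAGGAAGT), the interferon-stimulated response element (ISRE) and STAT (TTCNNNGAA). NF-kB matches were in 6 of 75 windows (8.0%, against 5.03% of 175738 windows over all peaks), AP-1 in 9 (12.0%, against 6.61%), C/EBP in 6 (8.0%, against 6.44%), STAT in 8 (10.7%, against 4.85%) and ISRE in 4 (5.33%, against 2.04%). Runx matches were in 13 (17.3%, against 18.7%) and PU.1 matches in 2 (2.67%, against 3.75%). With so few windows, these shares are a description. Of the 6 windows with an NF-kB match, 4 were at Zc3h12a, including the intron 2 peak shown above and the peak at 463 bp.

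Markers of other cells moved in part with the groups. Summed tags at 25 peaks of T cell genes ran from 1178 to 1310 after oil and from 1389 to 1520 after tamoxifen, and those at 35 peaks of NK cell genes from 3712 to 3808 and from 4246 to 4350. In each list 1 peak rose, at Cd3d (log2 0.71) and Nkg7 (1.07), and Cd8b1, Trac, Ncr1 and Klrk1 had no peak. The Cd3d peak alone went from a mean of 222 tags after oil to 362 after tamoxifen. At the 2 T cell genes with a start-site peak, that peak was lower after tamoxifen and did not pass (Cd3g log2 -0.34, Lck -0.42). The median over the 25 T cell peaks was 0.22. At 374 peaks of progenitor genes, 7 rose and 1 fell, and sums ran from 33520 to 35000 after oil and from 35300 to 38560 after tamoxifen, with the start site of Cd34 among those that rose (94.6 ± 21.8 to 270 ± 60.0 tags, SD, n = 3 each). At 92 peaks of erythroid genes 2 rose and 3 fell, and sums ran from 10400 to 10820 and from 9374 to 10180. Mature myeloid cells are main producers of these cytokines. At 80 peaks of their marker genes 0 passed DESeq2 and 2 edgeR (6 at an unadjusted p under 0.05), and sums of 7277 to 7596 after oil and 7407 to 7661 after tamoxifen overlapped. At 40 peaks of B cell genes 0 passed DESeq2 or edgeR (6 at an unadjusted p under 0.05), with sums of 2639 to 2722 and 2461 to 2812. Counts in these lists compare with 1.39% of all peaks past DESeq2, 2.92% past edgeR and 9.02% at an unadjusted p under 0.05. In sorted bulk cells a change in the share of cells and a change in accessibility per cell cannot be told apart, and the part of these markers in the results above was not tested.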

How the data were processed

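ATAC-seq of 6 libraries (3 oil, 3 tamoxifen) was analysed from 1 table of merged peaks. Per the file headers and the study's methods, the authors aligned reads to mm10 using Bowtie2, and HOMER served to find peaks in each group, to merge both lists and to count tags (tools and build as in the submitters' processing notes, versions not given in the sources used here). The deposited tags are estimated counts in steps of 0.5 without normalisation, in which no position contributes more than 3 tags. The limit caps the highest peaks, and peaks called in neither group are absent. The deposited peak score and the annotation columns were used only to describe peaks.

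Rounded tags entered the Wald test of DESeq2 1.42.0 under R 4.3.3 with default settings, over all peaks and over tags summed per gene. edgeR 4.0.16, other size factors, filters and distance limits, each library left out and the replicate number as a block were alternatives. On simulated data with known changes both tools gave their direction, but over single peaks more than the nominal share of calls were unchanged peaks, so an adjusted p near 0.05 is weak. All 10 genes are named. Peaks are named if they passed, were nearest the TSS of their gene, or had the smallest p of a gene with none passed, and others were chosen after their values were seen. The genes and lists were chosen with earlier results of these data known. Motif windows came from GRCm38.p6. Distances lay within 2 bp of those from the RefSeq transcript that the file names for 82 of 82 peaks compared.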

Additional observations from a re-analysis of the deposited data

How the results depend on the processing

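Of the 75 peaks, 4 passed the adjusted p, 1 of them with a fold over 2, and 3 genes passed in sum. Leaving out 1 library at a time gave 1 to 6 peaks, 0 to 1 peaks past the fold and 0 to 3 genes (0 without oil replicate 1, where 3 had an unadjusted p under 0.05). The fit of distal peaks alone gave 1 peak, where 2 of the 4 are distal (Il6 had an adjusted p of 0.103 there). edgeR gave 6 peaks, 2 of them past the fold, and the fall at the Plaur peak at -5074 bp (log2 -1.02) is in both counts. The distance limit of 50000 bp left 0 peaks past the fold, by leaving out the Map3k8 peak at 73587 bp. All peaks by position, an alternative chosen after seeing the data, gave 9 of 415. These were the 4 above and 5 of 340 further peaks (1.47%, near the 1.39% of all peaks that passed). Other size factors, a filter of 10 mean tags and no independent filtering gave 4 or 5 peaks. The direction was the same at 70 or more of the peaks under each alternative fitted to all 75. This adds little, because each of these fits reuses the same libraries or most of them.

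Replicate numbers 1 and 4 occur in both groups, and deviations of same-numbered libraries were nearly uncorrelated (-0.0466 and 0.0504). The oil libraries differed by little more than counting error (chi-square divided by its degrees of freedom, 1.034 to 1.215). Their deviations were thus too small for these correlations to show a pairing or its absence. Whether same-numbered libraries share more than a number was therefore not tested. With the number as a replicate block, which leaves 4 libraries and 1 residual degree of freedom, 0 peaks, 0 peaks past the fold and 0 genes passed DESeq2 (1 peak and 1 gene at an unadjusted p under 0.05).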

Other observations

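Around the 10 genes lay 340 further peaks, within 100000 bp of their RefSeq start sites, that the annotation gave to other genes. Of these, 5 passed the same DESeq2 test (adjusted p under 0.05 over all peaks) and all 5 rose. This is 1.47%, close to the 1.39% of all peaks that passed, so the count says nothing particular of these neighborhoods, and the peaks are given as values. They were picked out after their values had been seen. The largest change was at an intergenic peak given to Irgc1, -9077 bp from the NM_011113 start of Plaur (chr7:24453199-24453613). It had 36.4, 35.1 and 34.9 normalised tags after oil and 96.7, 84.7 and 80.1 after tamoxifen, with a log2 change of 1.30 ± 0.25 (SE, adjusted p = 0.000119).

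The others were the Il1b intron peak already described, a peak at -16873 bp from the Tnf start site (chr17:35218664-35219097) and 2 peaks on either side of Osm. The peak upstream of Tnf had 181, 154 and 190 tags after oil and 251, 303 and 212 after tamoxifen (log2 0.54 ± 0.15 SE, adjusted p = 0.0362). At the start site of Lif, 29941 bp from that of Osm, the values were 189, 178 and 195 after oil and 286, 274 and 225 after tamoxifen (log2 0.48 ± 0.14 SE, adjusted p = 0.0449). In an intron of Tbc1d10a, -40993 bp from Osm, they were 106, 91.7 and 104 against 160, 173 and 132 (log2 0.62 ± 0.18 SE, adjusted p = 0.0386). In all 5 peaks every tamoxifen library was above every oil library, which adds no support because the peaks were picked for having passed.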
